A study of Mus musculus with 8 samples.

Results

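Hearts of fat-1 transgenic mice and of wild-type mice were compared after sham surgery, the condition without pressure overload, by RNA-sequencing of 2 libraries per genotype. The comparison used 13025 of the 25929 genes listed, those at 1 FPKM or more (fragments scaled to transcript length and library depth) in at least 2 of the 4 sham libraries. WT-Sham are C57BL/6 wild-type littermates, and Fat1-Sham are littermates that carry the fat-1 gene of Caenorhabditis elegans, which encodes an n-3 fatty acid desaturase. All were 3 months old when the chest was opened without constriction of the aorta. WT-TAC and Fat1-TAC are the same genotypes after several weeks of transverse aortic constriction (TAC). Their 4 libraries share no sample with the sham comparison. The paper does not state separately how long after surgery the sham hearts were taken. All mice ate a regular rodent diet. The promoter of the transgene and the hour of tissue collection are not given in the sources used here, nor is whether a sample is 1 animal, so p-values measure the spread between these samples. The labels name ventricular tissue as the source of the RNA, and the methods name whole hearts. The table lists mouse genes, so the fat-1 transcript itself was not analysed here and the genotype labels could not be checked by it.

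The FAT-1 protein inserts a double bond into n-6 polyunsaturated fatty acids (PUFAs), such as arachidonic acid, and so turns them into n-3 PUFAs such as eicosapentaenoic acid. Mammals lack this enzyme and obtain n-3 PUFAs from food, lengthening and desaturating them with elongases and the desaturases Fads1 and Fads2. PUFAs are ligands of the nuclear receptors of the PPAR family, which control fatty acid oxidation in the heart, and they are the precursors of prostaglandins, leukotrienes and other oxylipins that act in inflammation and fibrosis.

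Depths recovered from the FPKM values were 14163994 and 21218331 fragments for WT-Sham and 17780695 and 19555675 fragments for Fat1-Sham. A gene near 1 FPKM rested on a median of 22, 32, 26 and 31 fragments in these libraries, so counting error alone is large for the genes of lowest level. Just inside the limit on low values stood Fbxo17, whose second highest library was at 1.0007 FPKM, and just outside stood Cdt1, whose second highest was at 0.9998 FPKM. Heart muscle genes were the most abundant nuclear transcripts. Myh6, the main myosin heavy chain of the adult mouse heart, was at 13400 and 15520 FPKM in WT-Sham and at 15280 and 17690 FPKM in Fat1-Sham. The 8 cardiomyocyte markers summed to 54060 and 51800 FPKM in WT-Sham and to 53660 and 62320 FPKM in Fat1-Sham. Markers of heart muscle were thus abundant in all 4 libraries.

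The main spread between the 4 libraries over all genes did not follow genotype. The first principal component, with 52.2% of the variance, placed WT-Sham2 at -27.5 and Fat1-Sham2 at 22.9. WT-Sham1, at 6.93, and Fat1-Sham1, at -2.36, lay between them. On the second, with 27.1%, the genotypes overlapped. On the third, with 20.6%, WT-Sham was at 12.77 and 5.16, above Fat1-Sham at -18.37 and 0.44. Between WT-Sham1 and WT-Sham2, 284 genes differed by more than 2-fold on the log2(FPKM + 1) scale, and between Fat1-Sham1 and Fat1-Sham2 223 genes did. Between WT-Sham1 and Fat1-Sham1 125 genes did, fewer than within either genotype, and between WT-Sham2 and Fat1-Sham2 453 genes did.

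Markers of tissues next to the ventricle moved with single libraries. The 6 atrial myocyte markers summed to 1051 FPKM in WT-Sham1, 3878 in WT-Sham2, 1369 in Fat1-Sham1 and 28.3 in Fat1-Sham2. Their most abundant member was Myl7, the atrial regulatory myosin light chain, at 456 and 1945 FPKM in WT-Sham and 602 and 9.62 FPKM in Fat1-Sham. Its log2 fold change was -3.56 with a standard error of 1.77, and the groups overlapped. Sln, which encodes the calcium pump inhibitor sarcolipin, and Myl4, the atrial essential light chain, followed the same order of libraries. Sln was at 1.13 FPKM in Fat1-Sham2 against 142 in Fat1-Sham1. Of the 6 markers 5 had a lower mean in Fat1-Sham. The other, Bmp10, had a higher mean, with a log2 fold change of 1.45 and overlapping groups.

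Lung transcripts were found in Fat1-Sham1 and hardly in the other 3 sham libraries. The airway club cell list summed to 50.9 FPKM in Fat1-Sham1 against 1.16, 2.74 and 0.668 in WT-Sham1, WT-Sham2 and Fat1-Sham2. The alveolar list summed to 38.0 FPKM against 0.450, 0.847 and 0.734. Scgb1a1, the secretoglobin of club cells, was at 33.1 FPKM in Fat1-Sham1 and at most 0.297 in the others, and Sftpc, a surfactant protein, was at 29.9 FPKM and at most 0.127. Scgb3a2 and Sftpa1 were listed at 0 in the other 3 libraries. Of the 15 genes of these lists, 1 passed the limit on low values, so these transcripts hardly entered the comparison. The 10 white adipocyte markers summed to 553 and 724 FPKM in WT-Sham and 745 and 365 FPKM in Fat1-Sham. Ddx3y, Uty, Eif2s3y and Kdm5d, which lie on the Y chromosome, were at 4.59 FPKM or more in all 4 libraries and Xist, from the X chromosome, was at most 0.0409 FPKM, so none of the 4 differed from the others in sex.

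**Figure D1:**
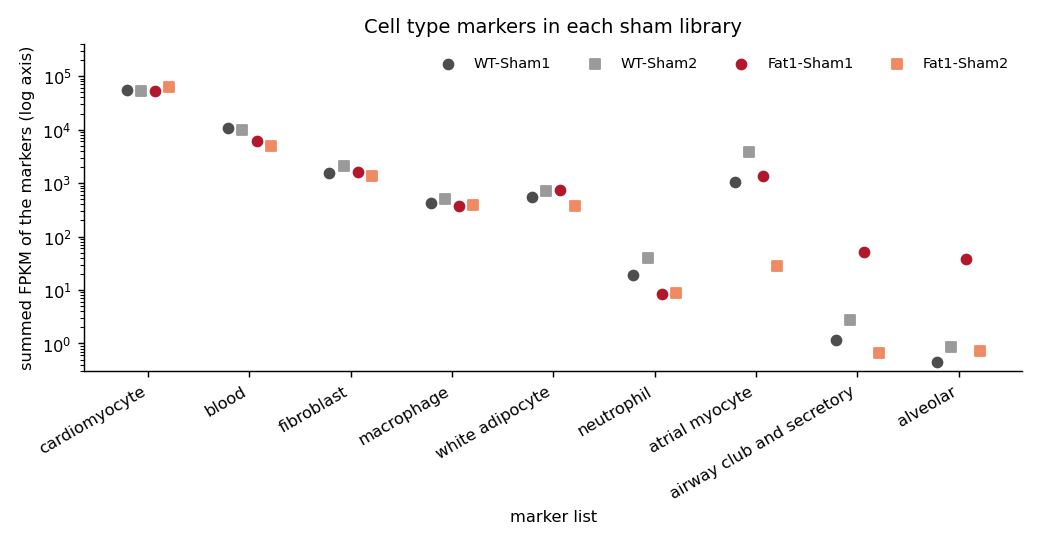
Summed FPKM of the markers of 9 cell types (log axis) in each of the 4 sham libraries, with grey points for WT-Sham and red points for Fat1-Sham. Atrial markers span 28.3 to 3878 FPKM without a split by genotype, airway and alveolar markers stand out in Fat1-Sham1, and the blood and neutrophil markers are lower in both Fat1-Sham libraries.

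No gene passed the test for a difference between the genotypes. With the thresholds of an adjusted p below 0.1 and 1.5-fold, limma called 0 of 13025 genes higher (0%) and 0 lower (0%) in Fat1-Sham, and the smallest adjusted p was 0.567. An unadjusted p under 0.05 was reached by 564 genes, 4.33% of those tested, of which 224 (1.72%) were higher and 340 (2.61%) lower in Fat1-Sham. Of these, 44 genes (0.338%) were over 1.5-fold higher and 152 (1.17%) over 1.5-fold lower, counts that carry no adjustment. Both Fat1-Sham libraries lay above both WT-Sham libraries for 16.4% of all genes and below them for 16.1%, which is the background against which separate groups are read here. The median log2 fold change over all genes was -0.01. The smallest p that exact permutation allows in a design of this size is 0.33, and the values that follow describe these libraries.

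**Figure D2:**
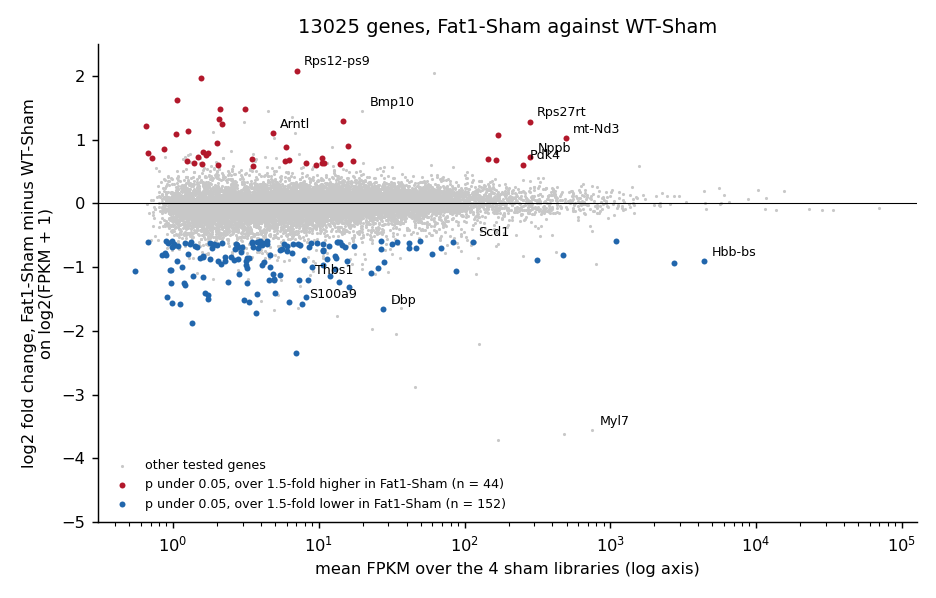
Log2 fold change of Fat1-Sham over WT-Sham on the log2(FPKM + 1) scale against the mean FPKM of the 4 sham libraries (log axis) for 13025 genes. The 44 genes higher (red) and 152 genes lower (blue) in Fat1-Sham at an unadjusted p under 0.05 and over 1.5-fold are marked, none of which passed adjustment, and the atrial gene Myl7 lies far down in grey, with groups that overlap.

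The mouse genes that desaturate and lengthen fatty acids gave no call. Of 17 desaturase and elongase genes tested, 6 had a higher and 11 a lower mean in Fat1-Sham, and none was at p under 0.05. The median log2 fold change was -0.08, and it ran from -0.33 to 0.13 with each library left out in turn, above 0 without WT-Sham2 or Fat1-Sham2. Fads1, the delta-5 desaturase, was at 4.72 and 6.74 FPKM in WT-Sham and at 7.06 and 5.33 FPKM in Fat1-Sham. Fads2, the delta-6 desaturase, was at 3.51 and 5.75 FPKM and at 4.36 and 3.56 FPKM. For both genes the Fat1-Sham libraries fell within or next to the range of WT-Sham. The 95% interval of the log2 fold change was -0.42 to 0.63 for Fads1 and -0.74 to 0.42 for Fads2. Changes within these intervals are compatible with the values, and larger ones in other genes also did not pass adjustment. Elovl5, which elongates PUFAs, was at 33.5 and 33.5 FPKM against 34.5 and 30.3 FPKM. In this list the groups were apart for 1 gene, Elovl1, an elongase of long saturated and monounsaturated fatty acids, at 17.8 and 16.8 FPKM in WT-Sham and 15.7 and 12.9 FPKM in Fat1-Sham.

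Scd1, the stearoyl-CoA desaturase that makes monounsaturated fatty acids, varied widely within a genotype. Its level was 125 and 68.2 FPKM in WT-Sham and 236 and 14.9 FPKM in Fat1-Sham. Fat1-Sham1 and Fat1-Sham2 thus stood above and below both WT-Sham libraries, in the order of the white adipocyte markers at the 2 ends, and the standard error of the difference was 1.14 on the log2 scale. The part of adipose tissue in this spread was not tested.

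Of 24 enzymes tested that turn PUFAs into oxylipins, 8 had a higher and 16 a lower mean in Fat1-Sham. The median log2 fold change was -0.12, and it ran from -0.33 to 0.03 when each library was left out in turn, above 0 without WT-Sham2. The members at p under 0.05 were 2, both lower. Ptgs2, the inducible cyclooxygenase, was at 1.23 and 1.67 FPKM in WT-Sham and at 0.748 and 0.404 FPKM in Fat1-Sham. Alox5ap, the protein that presents arachidonic acid to 5-lipoxygenase, was at 4.08 and 2.94 FPKM in WT-Sham and at 1.23 and 2.31 FPKM in Fat1-Sham. Ptgs2 was under 1 FPKM in both Fat1-Sham libraries and so entered the comparison through WT-Sham alone. Both genes had separate groups at low levels, Ptgs2 with 19 fragments in Fat1-Sham2, and neither passed adjustment (log2 fold changes -0.64 and -0.72, adjusted p = 0.996 for both by limma). The value of Alox5ap ran from -1.005 without Fat1-Sham2 to -0.433 without Fat1-Sham1. Ptgds, which makes prostaglandin D2 and was the most abundant of the list, was at 369 and 348 FPKM against 326 and 477 FPKM. Ephx2, the soluble epoxide hydrolase, was at 85.4 and 102 FPKM against 95.7 and 113 FPKM.

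Among 10 receptors for these lipids that were tested, 5 had a higher and 5 a lower mean. Ptgfr, the prostaglandin F receptor, was at 3.61 and 12.4 FPKM in WT-Sham and at 2.82 and 1.31 FPKM in Fat1-Sham. Its groups were apart, and its log2 fold change was -1.41 (SE 0.51, adjusted p = 0.996 by limma) and -0.64 without WT-Sham2. Over the 4 libraries WT-Sham2 was highest and Fat1-Sham2 lowest, as for the sum of the atrial markers. The part of atrial tissue in the Ptgfr values was not tested.

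Targets of the PPAR receptors and the enzymes of mitochondrial fatty acid oxidation had slightly higher means in Fat1-Sham. Of 18 PPAR targets tested, 14 had a higher mean, 8 with separate groups and none with separate groups in the other direction, and the median log2 fold change was 0.13, or 0.14 to 0.32 with each library left out in turn, highest without WT-Sham2. Pdk4, the kinase that turns off pyruvate dehydrogenase and so favours fatty acid use, was at 172 and 226 FPKM in WT-Sham and at 256 and 353 FPKM in Fat1-Sham. Its mean was 1.53 times as high in Fat1-Sham, with a log2 fold change of 0.61 (SE 0.19, adjusted p = 0.996 by limma) that became 0.38 without Fat1-Sham2. Mlycd, the malonyl-CoA decarboxylase that relieves the block on fatty acid entry into mitochondria, was at 41.1 and 46.0 FPKM against 53.1 and 57.1 FPKM. These 2 genes were the members of the list at p under 0.05. Acot2, a mitochondrial acyl-CoA thioesterase, and Plin5, a coat protein of lipid droplets, also had separate groups, with log2 fold changes of 0.34 and 0.26, or 0.20 and 0.12 without Fat1-Sham2.

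Angptl4, Pck1 and Fabp3 had overlapping groups. Angptl4, an inhibitor of lipoprotein lipase, was at 8.76 and 9.60 FPKM in WT-Sham and at 16.9 and 5.70 FPKM in Fat1-Sham. Pck1, an enzyme of glyceroneogenesis in fat, was at 26.02 and 39.4 FPKM against 61.2 and 7.14 FPKM, and for both genes the 2 Fat1-Sham libraries lay on either side of WT-Sham. Fabp3, the fatty acid carrier of heart muscle and the most abundant member, was at 2805 and 2436 FPKM against 2632 and 3066 FPKM.

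All 18 enzymes of mitochondrial fatty acid oxidation that were tested had a higher mean in Fat1-Sham, 12 with separate groups, and none was at p under 0.05. Their log2 fold changes ran from 0.03 to 0.36 with a median of 0.13, which became 0.07 without WT-Sham2 and 0.21 without WT-Sham1. Between WT-Sham1 and Fat1-Sham1 alone, a pair that has no test, 15 of the 18 were higher in Fat1-Sham1, against 8855 of all 13025 genes. The median log2 difference of the 18 enzymes was 0.04, below the 0.10 of all genes. Hadha, the alpha subunit of the trifunctional protein, was at 1017 and 894 FPKM in WT-Sham and at 1094 and 1107 FPKM in Fat1-Sham. Acadm, the medium-chain acyl-CoA dehydrogenase, was at 1556 and 1330 FPKM against 1594 and 1480 FPKM, groups that overlap. The differences were thus small for each gene and rested on their shared direction, and genes of 1 pathway in the same 4 libraries are not independent. The list of fatty acid uptake and storage shares Fabp3 with the PPAR targets, so their counts are not independent. Of its 20 genes tested, 14 had a higher mean, 7 of them with separate groups. Among these were Cd36, Lpl and Vldlr, which bring fatty acids into the muscle cell, with log2 fold changes of 0.13, 0.12 and 0.26. That of Lpl became 0.06 without WT-Sham1. Acacb, which makes the malonyl-CoA that restrains oxidation, was at 66.1 and 74.2 FPKM against 86.5 and 92.5 FPKM. Cardiomyocyte and sarcomere lists had medians of 0.10 and 0.13, the first of which ran from 0.02 to 0.17 with each library left out in turn.

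**Figure D3:**
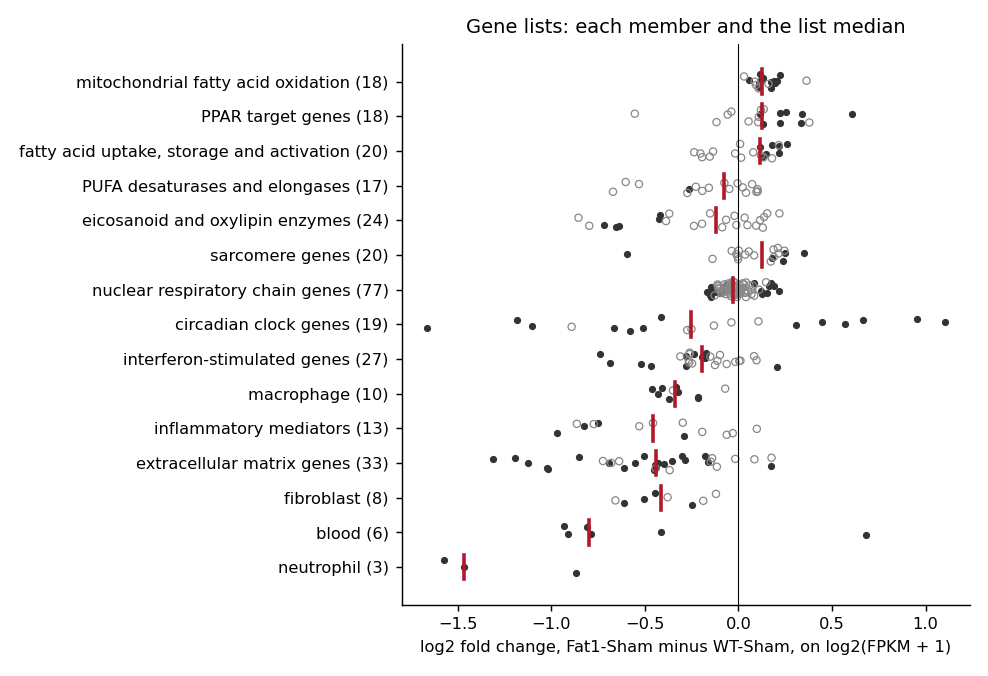
Log2 fold change of Fat1-Sham over WT-Sham for each tested member of 15 gene lists (number tested in brackets), with filled points for genes whose groups did not overlap, open points for the others and a red bar at the list median. The fatty acid oxidation enzymes lie just above 0, the medians of the matrix, immune and blood lists lie below it with single members above (up to 0.68, Hba-a2), and the clock genes spread from -1.66 to 1.102.

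Genes of the circadian clock stood on both sides. The clock is a loop in which the activators Arntl (also called Bmal1) and its partners Clock and Npas2 bind E-boxes and switch on the Per and Cry repressors, the output factors Dbp, Tef and Hlf, and Nr1d1 and Nr1d2, which in turn repress Arntl. The activators and their targets therefore peak at opposite times of day in the heart. All 19 clock genes listed were tested. Groups were apart for 6 that were higher and 7 that were lower in Fat1-Sham, 13 of 19, and 4 higher and 6 lower genes were at p under 0.05.

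The stretches before 4 of these genes are shown because they carry the elements through which the loop is wired, and the genes lie on both sides of the comparison. They come from RefSeq (GRCm38.p6), run from 5′ to 3′ on the strand of the gene, and end before the transcription start. Capitals mark the E-box, CACGTG, in Ciart and Tef, the ROR element, TAGGTCA, in Nfil3, where it reads on the other strand, and the D-box, TTATGTAA, in Per3. Ciart lies on the minus strand, chr3:95882242-95882369, Tef on the plus strand, chr15:81802521-81802576, Nfil3 on the minus strand, chr13:52981040-52981076, and Per3 on the minus strand, chr4:151044791-151044895.
Ciart: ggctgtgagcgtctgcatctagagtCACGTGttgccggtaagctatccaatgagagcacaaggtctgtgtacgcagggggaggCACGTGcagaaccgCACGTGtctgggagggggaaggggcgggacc
Tef: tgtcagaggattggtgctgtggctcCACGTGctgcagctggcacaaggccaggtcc
Nfil3: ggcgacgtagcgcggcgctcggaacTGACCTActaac
Per3: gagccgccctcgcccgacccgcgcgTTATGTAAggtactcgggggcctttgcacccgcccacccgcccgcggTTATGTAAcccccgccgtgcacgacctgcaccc

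Of the 19 clock genes, 16 had a promoter in the RefSeq table. In the 250 bases before the start, searched on both strands, an E-box was found in 5 of them, Bhlhe41, Ciart, Cry1, Per1 and Tef, and in 6.02% of all 32851 promoters. The D-box was found in Per3 alone of the clock genes and in 0.82% of all promoters, and the ROR element in Nfil3 alone and in 2.23%. A match is a description of the letters and says nothing about binding in these hearts.

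The activators were higher in Fat1-Sham. Arntl was at 3.58 and 1.96 FPKM in WT-Sham and at 6.58 and 7.23 FPKM in Fat1-Sham, or 2.77 ± 1.15 against 6.91 ± 0.460 (SD, n = 2). Its log2 fold change was 1.102 (SE 0.24, adjusted p = 0.996 by limma). Npas2 was at 1.14 and 0.926 FPKM against 2.63 and 3.25 FPKM, a log2 fold change of 0.95 (SE 0.20, adjusted p = 0.996 by limma) on 28 to 110 fragments. Clock, the other partner of Arntl, was at 11.7 and 9.999 FPKM against 13.6 and 13.7 FPKM. The groups were apart for all 3 activators, with the smallest difference in Clock, a log2 fold change of 0.31. Nfil3, a repressor at the D-box that carries the ROR element shown, was at 5.02 and 3.51 FPKM against 6.00 and 8.73 FPKM. Cry1, a late repressor of the loop, was at 5.97 and 8.43 FPKM against 9.95 and 12.2 FPKM.

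The targets were mostly lower in Fat1-Sham. Per2, a core repressor, was at 5.96 and 8.46 FPKM in WT-Sham and at 2.84 and 2.31 FPKM in Fat1-Sham, or 7.21 ± 1.76 against 2.57 ± 0.373 (SD, n = 2). Its log2 fold change of -1.19 (SE 0.21, adjusted p = 0.920 by limma) had the smallest unadjusted p of the clock genes. Dbp, an output factor that binds the D-box, was at 23.9 and 62.8 FPKM against 15.4 and 8.66 FPKM, a log2 fold change of -1.66 (SE 0.46, adjusted p = 0.996 by limma) that became -0.985 without WT-Sham2 and -2.34 without WT-Sham1. The groups were apart for both genes, and for Dbp the 2 WT-Sham libraries differed by more than WT-Sham1 and Fat1-Sham1 did.

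Ciart, a repressor that carries 3 E-boxes in the stretch shown, was at 3.96 and 10.5 FPKM against 2.497 and 2.54 FPKM. Tef was at 93.9 and 159 FPKM against 90.4 and 73.6 FPKM, and Hlf at 11.04 and 18.6 FPKM against 9.70 and 7.75 FPKM. Nr1d1 was at 42.9 and 51.8 FPKM against 36.7 and 33.7 FPKM, and Nr1d2 at 56.6 and 71.3 FPKM against 50.7 and 38.7 FPKM. In Per2, Dbp, Tef, Hlf, Nr1d1 and Nr1d2 the libraries stood in 1 order, WT-Sham2 highest, then WT-Sham1, Fat1-Sham1 and Fat1-Sham2. In Arntl, Npas2, Clock and Nfil3 the order was reversed.

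Not all clock genes were apart. Per1 was at 8.48 and 12.98 FPKM against 9.68 and 10.8 FPKM, Per3 at 4.36 and 13.03 FPKM against 4.56 and 2.93 FPKM, and Cry2 at 12.1 and 18.8 FPKM against 13.9 and 11.3 FPKM. Bhlhe40, Bhlhe41 and Rora had log2 fold changes of 0.11, -0.27 and -0.13, with overlapping groups. The hour of tissue collection was not available for these libraries, so genotype and time of day cannot be told apart. In the independent TAC libraries Dbp was at 65.3 and 104 FPKM in WT-TAC and 97.0 and 97.8 FPKM in Fat1-TAC, and Per2 at 14.9 and 23.5 FPKM against 9.04 and 12.7 FPKM. Per2 was thus lower in fat-1 hearts in both settings, and 76.9% of all genes had a lower value in Fat1-TAC. The Dbp groups were apart in the sham libraries and overlapped after TAC. The interaction of genotype and surgery did not pass adjustment for either gene (log2 differences 0.44 for Per2 and 1.90 for Dbp).

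**Figure D4:**
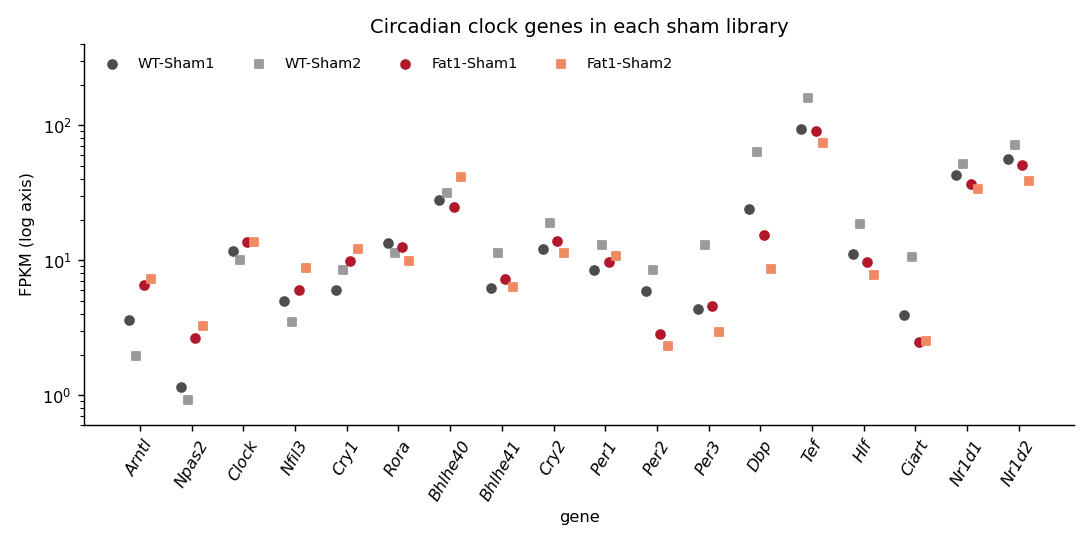
FPKM (log axis) of 18 circadian clock genes in each sham library, with grey points for WT-Sham and red points for Fat1-Sham. Arntl and Npas2 are higher and Per2, Dbp and Ciart lower in both Fat1-Sham libraries, and WT-Sham2 stands apart from WT-Sham1 for Dbp, Tef, Per3 and Ciart.

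Genes of the extracellular matrix had lower means in Fat1-Sham. Of 33 tested, 30 had a lower and 3 a higher mean, 21 were lower and 1 higher with separate groups, and 13 were at p under 0.05, all lower. Their median log2 fold change was -0.44, and it ran from -0.76 to -0.14 when each library was left out in turn, nearest to 0 without WT-Sham2. Thbs1, thrombospondin-1, a matricellular protein that activates latent TGF-beta, was at 12.4 and 11.9 FPKM in WT-Sham and at 4.27 and 5.22 FPKM in Fat1-Sham, or 12.1 ± 0.368 against 4.74 ± 0.671 (SD, n = 2). Its mean was 2.55 times as high in WT-Sham, and its log2 fold change was -1.20 (SE 0.15, 95% interval -1.57 to -0.82, adjusted p = 0.597 by limma). The spread within each genotype was small beside this gap. Timp3, a metalloproteinase inhibitor bound to the matrix, was at 76.0 and 94.6 FPKM against 58.5 and 46.4 FPKM.

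Other matrix genes were high mainly in WT-Sham2. Postn, periostin, a product of activated fibroblasts and valve cells, was at 21.2 and 49.5 FPKM in WT-Sham and at 18.7 and 12.8 FPKM in Fat1-Sham. Comp, a cartilage and tendon matrix protein, was at 12.8 and 35.4 FPKM against 10.6 and 6.02 FPKM, and Fmod, fibromodulin, at 12.1 and 23.7 FPKM against 9.21 and 6.69 FPKM. For these 3 genes WT-Sham1 lay nearer to Fat1-Sham1 than to WT-Sham2. Collagens were highest in WT-Sham2 as well. Col1a1 was at 64.6 and 106 FPKM against 60.4 and 60.8 FPKM, and Col3a1 at 149 and 234 FPKM against 143 and 132 FPKM. Sparc, the most abundant gene of the list, was at 346 and 404 FPKM against 309 and 277 FPKM. Mfap5, a microfibril protein, was at 29.4 and 45.2 FPKM against 18.5 and 19.2 FPKM.

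The fibroblast markers moved with the matrix. They include Col1a1, given above with the matrix genes, and so are not independent of the matrix values. All 8 had a lower mean in Fat1-Sham, 4 with separate groups, their median log2 fold change was -0.41 (-0.75 to -0.10 with each library left out in turn, nearest to 0 without WT-Sham2), and they summed to 1547 and 2129 FPKM in WT-Sham and 1619 and 1372 FPKM in Fat1-Sham. Dcn, decorin, was at 284 and 441 FPKM against 286 and 259 FPKM. In whole tissue, fewer cells of a type and less RNA per cell cannot be told apart. WT-Sham2, highest in matrix and fibroblast sums, was also highest in atrial markers, and Fat1-Sham2 was lowest in all 3. Between WT-Sham1 and Fat1-Sham1, the libraries of opposite genotype nearest in atrial markers, 24 of 33 matrix genes were lower in Fat1-Sham1, against 32.0% of all genes, with a median log2 difference of -0.15 against 0.10 for all genes. For the fibroblast markers 4 of 8 were lower and the median was -0.02. This pair of libraries was chosen after the values were seen, and with 1 library a genotype it has no test.

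Markers of macrophages and neutrophils and many mediators of inflammation also had lower means in Fat1-Sham. All 10 macrophage markers had a lower mean, 8 with separate groups and 3 at p under 0.05, with a median log2 fold change of -0.34, or -0.47 to -0.20 with each library left out in turn, nearest to 0 without WT-Sham2. C1qc, a subunit of complement C1q made by tissue macrophages, was at 66.1 and 80.8 FPKM in WT-Sham and at 52.4 and 55.6 FPKM in Fat1-Sham. Mrc1, the mannose receptor of resident macrophages, also had separate groups, with a log2 fold change of -0.46 (SE 0.18, adjusted p = 0.996 by limma) that became -0.23 without WT-Sham2. Lyz2, lysozyme, the most abundant marker, was at 171 and 193 FPKM against 155 and 158 FPKM. The marker sum was 421 and 509 FPKM against 366 and 383 FPKM. Between WT-Sham1 and Fat1-Sham1, the pair above that has no test, 9 of the 10 markers were lower in Fat1-Sham1, against 32.0% of all genes.

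Of 6 neutrophil markers, 3 were tested, and all 3 were lower with separate groups and at p under 0.05. S100a9, a calgranulin of neutrophil cytoplasm, was at 7.94 and 16.2 FPKM in WT-Sham and at 3.05 and 3.27 FPKM in Fat1-Sham. Its partner S100a8 was at 7.89 and 17.6 FPKM against 3.20 and 4.16 FPKM. Csf3r, the receptor of granulocyte colony-stimulating factor, was at 2.33 and 2.88 FPKM against 1.25 and 0.718 FPKM. The log2 fold changes were -1.57 for S100a9 (SE 0.31), -1.47 for S100a8 (SE 0.35) and -0.87 for Csf3r (SE 0.23), each with an adjusted p of 0.996 by limma. With each library left out in turn the median of the 3 ran from -2.00 to -0.93, and S100a8 was at -0.93 without WT-Sham2. Ly6g, a defining neutrophil marker, was above 0 only in WT-Sham2, at 0.221 FPKM.

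Of 13 inflammatory mediators tested, 12 had a lower mean, 4 with separate groups and 3 at p under 0.05, and the median log2 fold change was -0.46, or -0.50 to -0.17 with each library left out in turn, nearest to 0 without WT-Sham2. Il1b, interleukin-1 beta, was at 2.10 and 2.57 FPKM in WT-Sham and at 0.696 and 1.08 FPKM in Fat1-Sham, on 10 to 44 fragments. Vcam1, an adhesion molecule for leukocytes, was at 13.2 and 13.7 FPKM against 9.36 and 6.10 FPKM. Ccl7, a chemokine for monocytes, was at 6.08 and 3.06 FPKM against 1.69 and 1.79 FPKM.

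A pair of chemokines had small p-values, the second of them picked with its values in view. Ccl6, made by macrophages, was at 32.5 and 34.8 FPKM in WT-Sham and at 20.1 and 19.97 FPKM in Fat1-Sham, a log2 fold change of -0.72 (SE 0.11, adjusted p = 0.861 by limma). Ccl11, eotaxin, which attracts eosinophils, was at 7.18 and 7.32 FPKM against 2.39 and 2.79 FPKM, a log2 fold change of -1.20 (SE 0.16, adjusted p = 0.597 by limma). The WT-Sham mean of Ccl11 was 2.80 times that of Fat1-Sham. Of 27 interferon-stimulated genes, 22 had a lower mean and 5 a higher one, 10 of the lower with separate groups, and the median log2 fold change was -0.20, or -0.31 to -0.06 with each library left out in turn, nearest to 0 without Fat1-Sham1. Isg15, a ubiquitin-like protein, was at 11.8 and 9.73 FPKM against 5.06 and 7.71 FPKM, and Ube2l6, its conjugating enzyme, at 40.6 and 42.9 FPKM against 27.3 and 26.7 FPKM.

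Transcripts of red blood cells were lower in Fat1-Sham. Of 6 blood markers tested, 5 had a lower and 1 a higher mean, all with separate groups. The list summed to 10580 and 9668 FPKM in WT-Sham and to 6199 and 4913 FPKM in Fat1-Sham. Hbb-bs, an adult beta-globin and the most abundant of them, was at 6137 and 5360 FPKM in WT-Sham and at 3459 and 2693 FPKM in Fat1-Sham, a log2 fold change of -0.91 (SE 0.16, adjusted p = 0.934 by limma). Hba-a1, an alpha-globin, was at 3556 and 3589 FPKM against 2137 and 1641 FPKM, a log2 fold change of -0.93 (SE 0.15, adjusted p = 0.881 by limma). Hba-a2, the second alpha-globin gene, was at 144 and 107 FPKM against 167 and 239 FPKM and was the single member with a higher mean. The Hba-a1 and Hba-a2 transcripts differed at 1 of 538 aligned bases, so reads cannot be divided between them with confidence. Their sum was 3700 and 3695 FPKM in WT-Sham and 2304 and 1880 FPKM in Fat1-Sham, a Fat1-Sham mean 0.566 times that of WT-Sham.

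Red cell genes other than globins were lower too. Alas2, which starts haem synthesis in red cell precursors, was at 80.5 and 70.6 FPKM in WT-Sham and at 52.2 and 35.8 FPKM in Fat1-Sham. Bpgm, which makes the bisphosphoglycerate that lowers the oxygen affinity of haemoglobin, was at 60.03 and 58.1 FPKM against 44.2 and 34.4 FPKM. Hba-a1, Hbb-bs, Alas2 and Bpgm were thus apart between genotypes, with both Fat1-Sham libraries below both WT-Sham libraries. In the TAC libraries the blood list summed to 5028 and 8439 FPKM in WT-TAC and to 4242 and 5236 FPKM in Fat1-TAC. How much blood each heart held was not measured, and its part in the neutrophil values was not tested.

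Genes of the heart muscle cell stood on both sides. Of 20 sarcomere genes, 14 had a higher and 6 a lower mean, with a median log2 fold change of 0.13, and of 77 nuclear genes of the respiratory chain 30 had a higher and 47 a lower mean, with a median of -0.03 and none at p under 0.05. With each library left out in turn the sarcomere median ran from 0.03, without Fat1-Sham2, to 0.18, and the respiratory chain median from -0.12 to 0.05, above 0 without WT-Sham1 or Fat1-Sham1. Of 20 calcium handling genes, 7 were higher and 5 lower with separate groups, and the median was 0.05. The lower ones included Casq1, Fkbp1b and Stim1, with log2 fold changes of -0.68, -0.24 and -0.26. Without WT-Sham2 those of Casq1 and Fkbp1b became -0.37 and -0.06. Kcnip2, the subunit of the channels that carry the transient outward potassium current, was at 97.3 and 93.3 FPKM in WT-Sham and at 131 and 130 FPKM in Fat1-Sham, a log2 fold change of 0.45 (SE 0.09, adjusted p = 0.996 by limma). Rrad, a small GTPase that restrains L-type calcium channels, was at 124 and 96.3 FPKM against 195 and 163 FPKM. Jph2, junctophilin, the member of the calcium handling list with the largest difference upward, was at 127 and 135 FPKM against 161 and 172 FPKM. In all 3 genes both Fat1-Sham libraries stood above WT-Sham.

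Nppb, the natriuretic peptide that ventricles release under stretch, was at 248 and 175 FPKM in WT-Sham and at 284 and 418 FPKM in Fat1-Sham, a mean 1.66 times as high (log2 fold change 0.72, SE 0.23, adjusted p = 0.996 by limma; 0.45 without Fat1-Sham2). Nppa, which is expressed mostly in atria, was at 106 and 259 FPKM against 128 and 9.05 FPKM and followed the sum of the atrial markers. Tcap, telethonin, a Z-disc protein, was lower, at 1012 and 1624 FPKM against 933 and 773 FPKM. Nr4a1, a nuclear receptor and immediate early gene, was at 8.85 and 12.9 FPKM against 18.4 and 23.5 FPKM.

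Mitochondrially encoded genes did not move together. They took 27.6% and 22.9% of the fragments in WT-Sham and 23.9% and 23.6% in Fat1-Sham. Of the 13, 5 had a higher and 8 a lower mean, and the 3 at p under 0.05 were all higher. The short genes mt-Nd3 and mt-Nd4l, both subunits of complex I, were at 303 and 325 FPKM against 891 and 456 FPKM and at 128 and 88.2 FPKM against 283 and 178 FPKM. The third, mt-Co2, was at 1296 and 1191 FPKM against 2277 and 1512 FPKM, whereas mt-Co1, the most abundant gene of these libraries, was at 80250 and 63810 FPKM against 68420 and 67370 FPKM. Fat1-Sham1 was thus the highest library for the 3 genes that were higher and apart. Another gene was apart in the other direction, mt-Nd4, a further subunit of complex I, at 14840 and 13770 FPKM against 13000 and 13530 FPKM.

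Among the genes higher in Fat1-Sham, the 2 with the smallest unadjusted p were processed pseudogenes, and a copy of a ribosomal protein gene was also among those at p under 0.05. Rps12-ps9, a processed pseudogene of Rps12, was at 1.42 and 2.84 FPKM in WT-Sham and at 12.8 and 11.02 FPKM in Fat1-Sham, on 8 to 91 fragments. Gm8325, annotated as a transcribed processed pseudogene, was at 8.44 and 7.71 FPKM against 22.6 and 19.8 FPKM, with the smallest p of all genes (6.92e-05, adjusted p = 0.567 by limma). Rps27rt was at 205 and 124 FPKM against 323 and 469 FPKM, a log2 fold change of 1.28, and its near-identical copy Rps27 moved the other way, at 355 and 459 FPKM against 256 and 185 FPKM, a log2 fold change of -0.89. Their transcripts were identical over 341 aligned bases, and their sum was 560 and 584 FPKM in WT-Sham and 578 and 653 FPKM in Fat1-Sham. Which copy the reads came from is therefore uncertain, and the sum differed by less than the spread within Fat1-Sham. The Rps12 and Rps12-ps9 transcripts differed at 2 of 399 aligned bases, and their sum was 82.2 and 85.3 FPKM against 69.9 and 83.0 FPKM. Of the 44 genes higher in Fat1-Sham at p under 0.05 and 1.5-fold, 21 were protein-coding, and of the 152 lower genes 118 were, where 89.5% of the tested genes were protein-coding.

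The same genotypes after TAC gave values in libraries that the sham comparison did not use. All tested genes had a median log2 fold change of -0.38 there, and 76.9% had a lower value in Fat1-TAC, so directions are read against that shift. Of the 152 genes lower in Fat1-Sham, 132 were lower in Fat1-TAC, 116 lay below the TAC median, and 57 (37.5%) were also at p under 0.05 and 1.5-fold lower, against 9.97% of all genes. Of the 44 higher genes, 16 were higher in Fat1-TAC, where 23.1% of all genes were, 31 lay above the TAC median, and 2 were also at p under 0.05 and 1.5-fold higher, mt-Nd3 and mt-Nd4l, against 0.676% of all genes. Both are mitochondrially encoded, and all 13 genes of that list were higher with separate groups in Fat1-TAC, with a median of 0.903. Mitochondrially encoded genes took 11.75% and 19.31% of the fragments in WT-TAC and 27.71% and 24.01% in Fat1-TAC. Both Fat1-TAC libraries lay below both WT-TAC libraries for 103 of the 152 lower genes, against 56.5% of all genes, and above them for 5 of the 44 higher genes, against 9.93% of all genes.

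The matrix, macrophage and inflammatory lists had TAC medians of -0.81, -0.63 and -0.69, below that of all genes, and the interferon-stimulated genes had one of -0.19, above it. The 3 neutrophil markers tested had a TAC median of -0.945, with groups apart for 1, S100a8. Thbs1 was at 12.1 and 18.2 FPKM in WT-TAC and at 3.72 and 5.78 FPKM in Fat1-TAC. These were close to its sham levels in each genotype apart from the higher value of WT-TAC2. Ccl6 was at 36.7 and 30.6 FPKM against 14.7 and 18.5 FPKM, and Ccl11 at 22.8 and 10.1 FPKM against 5.10 and 5.91 FPKM. For these 3 genes no Fat1 library reached any WT library of the same surgery. Ptgfr was at 8.64 and 9.18 FPKM against 1.26 and 1.23 FPKM, Comp at 29.4 and 34.8 FPKM against 9.67 and 8.19 FPKM, and Postn at 49.8 and 47.3 FPKM against 26.2 and 19.1 FPKM. The atrial markers summed to 2519 and 2517 FPKM in WT-TAC and to 56.0 and 39.7 FPKM in Fat1-TAC, and the airway markers to 1532 and 4053 FPKM against 0.930 and 1.07 FPKM, so tissue content differed between the TAC groups as well. Its part in these values was not tested.

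Of single genes that were higher after sham, Arntl was at 13.2 and 0.446 FPKM in WT-TAC and at 0.979 and 0.546 FPKM in Fat1-TAC, and Rps12-ps9 and Gm8325 had log2 fold changes of -0.06 and -0.13 after TAC, above the TAC median of -0.38. No gene passed adjustment for the interaction of genotype and surgery, for which the smallest adjusted p was 0.252 by limma and 810 genes were at an unadjusted p under 0.05.

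**Figure D5:**
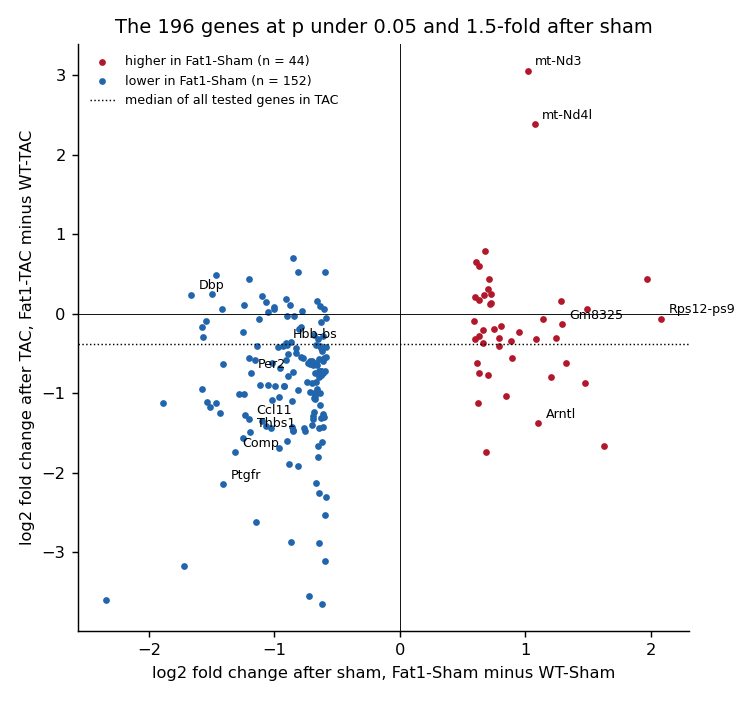
Log2 fold change between fat-1 and wild-type hearts after TAC (vertical axis) against that after sham (horizontal axis) for the 44 genes higher and 152 genes lower at p under 0.05 and 1.5-fold after sham, with a dotted line at the TAC median of all tested genes, -0.38. Most lower genes lie below 0 on both axes, and mt-Nd3 and mt-Nd4l are the highest of the higher genes.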

How the data were processed

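RNA-sequencing libraries of wild-type and fat-1 hearts after sham surgery or TAC, 2 per group and described by the labels as independent samples, were analysed. The authors quality-filtered and mapped the reads and deposited FPKM values for 25929 genes; the submitters' processing notes name HISAT2 and mm10 (GRCm38), and the counting program is not given in the sources used here. No whole-number counts were used here other than fragments recovered from the FPKM steps, which gave the depths and 1 alternative test. At a single length 100.0% of genes were whole within 0.005 fragments, against 9.9% of 3000 genes whose values were multiplied by random factors. Columns of no sample numbered 0, and 25852 genes carried a symbol. Gene types and transcripts were those of GENCODE M21.

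Genes that reached 1 FPKM in 2 or more of the 4 sham libraries were tested on log2(FPKM + 1) with limma 3.58.1 (lmFit, eBayes with trend; R 4.3.3), using the 4 sham libraries and no covariate, with Benjamini-Hochberg adjustment over all 13025 genes. Genes were called at the study's cutoffs, an adjusted p under 0.1 and 1.5-fold; an unadjusted p under 0.05, with or without 1.5-fold, was given as a description. Fold changes on this scale understate the change of low genes, and errors are limma's standard errors or the SD. The same fit was run on the TAC libraries, and the interaction on all 8. The fit was tested on simulated data. Sequences were searched with Python 3.11.15 and aligned with Biopython 1.88.

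The comparison, the gene lists and the tests were chosen with earlier results of these data known. Genes were named by rule: those whose mean reached 5 FPKM, with separate groups, that had the 12 smallest p-values or 6 largest changes per direction, the most abundant, smallest-p and extreme members of each list, all members of the lipid enzyme, PPAR, adipocyte, airway and sex-linked lists, Nnt, and the 5 most abundant genes. All clock genes other than Arntl, Per2, Dbp and Tef, and Ccl11, Vcam1, Alas2, Bpgm, Timp3, Postn, Fmod, Col1a1, Col3a1, Mfap5, Dcn, Hadha, Cd36, Lpl, Nppa, mt-Co2, mt-Nd4, Casq1, Fkbp1b, Stim1, Sftpa1, Ly6g, Rps12, Mki67, Ccna2, Mcm2, Mcm4, Mcm7, Fbxo17 and Cdt1, were picked with their values in view. The alternatives tried were a pseudocount of 0.1, other filters, 3 other scalings, all 8 libraries in the fit, the replicate number as a block, no moderation of variances, limma-voom on recovered fragments, and leaving out each library. Some genes are not reported here.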

Additional observations from a re-analysis of the deposited data

How the results depend on the processing

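Counts of called genes, 0 in each direction, were 0 under every alternative that kept all 4 libraries except the test without moderated variances, which called 1 lower gene. Leaving out each library in turn gave 0 to 3 higher and 0 to 14 lower calls, most without Fat1-Sham1, where the remaining library stands for its genotype and is assumed to vary like the other group, and Myl7, Myl4, Sln, Nppa, Scd1 and Pck1 were then among the lower calls. Without Fat1-Sham2, mt-Nd3 was called higher. The 44 higher genes at p under 0.05 and 1.5-fold became 20 with a mean of 5 FPKM or more, 26 with all 8 libraries and 14 without moderation, and the 152 lower genes became 64 with a mean of 5 FPKM or more, 37 without moderation and 233 with limma-voom. Without each library in turn these counts ran from 63 to 126 and from 116 to 612. The cause was not tested. With the replicate block, 0 genes were called and 58 and 183 were at p under 0.05 and 1.5-fold. Over the genes, same-numbered libraries deviated with a correlation of -0.134. Whether they share more than the number cannot be told from 2 libraries per genotype.

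Of 104 genes compared over 1438 alternatives, 20 changed sign in 25. All but 1 of these came from leaving out a library, with ranges of -0.32 to 0.24 for Per1, -0.55 to 0.044 for Cry2, -0.26 to 0.47 for Bhlhe40, -0.66 to 0.12 for Bhlhe41, -0.29 to 0.029 for Rora, -0.60 to 0.81 for Angptl4, -2.02 to 0.91 for Pck1, -0.019 to 0.21 for Acadm, -2.55 to 1.35 for Scd1, -0.12 to 0.32 for Fads1, -0.45 to 0.13 for Fads2, -0.14 to 0.043 for Elovl5, -0.14 to 0.41 for Ptgds, -0.24 to 0.09 for mt-Co1, -0.03 to 0.12 for Mcm2, -0.036 to 0.47 for Mcm3, -0.14 to 0.21 for Mcm4, -0.029 to 0.23 for Mcm7, -0.985 to 0.055 for Eif2s3y and -0.30 to 0.034 for Uty on the log2 scale. Leaving out 1 library moved 67 of the 104 by more than 1.5 times or changed their sign. The other change of sign was mt-Co1, at 0.00 with quantile normalization. Depth limits the genes near 1 FPKM.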

Other observations

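Of 13 genes of DNA replication and mitosis that were tested, 4 had a higher and 9 a lower mean in Fat1-Sham. Of these, 3 were under 1 FPKM in both Fat1-Sham libraries and passed the limit on low values through WT-Sham alone, so their difference is fixed in part by the limit. The list median of -0.21 became 0.04 over the members with a mean of 5 FPKM or more. Cdk1, the kinase that drives entry into mitosis, was at 1.62 and 1.23 FPKM in WT-Sham and at 0.414 and 0.335 FPKM in Fat1-Sham. Mki67, a marker of cycling cells, was at 1.51 and 1.21 FPKM against 0.677 and 0.654 FPKM, and Ccna2, cyclin A2, at 1.08 and 1.05 FPKM against 0.497 and 0.391 FPKM. Mcm2, Mcm3, Mcm4 and Mcm7, subunits of the replicative helicase, had log2 fold changes between 0.04 and 0.22 with overlapping groups.

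Stress and metabolic lists had small medians over members that went both ways, from -0.79 to 0.89 among immediate early genes. Antioxidant genes had a median log2 fold change of 0.00, heat shock proteins 0.06, glycolysis genes 0.11, lipogenesis and sterol genes 0.06, immediate early genes -0.03, MHC class II genes 0.01 and endothelial markers 0.00. The antioxidant, MHC class II and endothelial medians changed sign under another scaling. Smooth muscle and pericyte markers had a median of 0.14, hypertrophy and fetal genes -0.25, calcium handling genes 0.05 and the housekeeping reference genes -0.11. White and brown adipocyte, mesothelium and Schwann cell markers had medians of -0.46, -0.29, -0.28 and -0.57, with Fat1-Sham2 the lowest library of each sum. Epithelial, cartilage, B cell and fast skeletal muscle lists summed to at most 20.7 FPKM in any sham library, and the T cell and ciliated lists to at most 1.49 FPKM. Of 6 genes tested that differ between laboratory strains, 2 were higher and 3 lower with separate groups, and the median was -0.03. Among the lists of this paragraph with a median given, the glycolysis, reference gene, mesothelium and Schwann cell medians kept their sign when each library was left out in turn and the others did not, with ranges of -0.23 to 0.27 for smooth muscle, -0.50 to 0.08 for hypertrophy, -0.02 to 0.10 for calcium handling, -1.22 to 0.28 for white and -0.94 to 0.55 for brown adipocytes.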
